A study of Mus musculus with 6 samples.

Results

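Metallothioneins and the proteins that move zinc across membranes were followed in lung tissue as 7 genes, the metallothioneins *Mt1* and *Mt2*, the transcription factor *Mtf1*, the zinc exporter *Slc30a1* and the importers *Slc39a8*, *Slc39a10* and *Slc39a14*. They were taken by gene symbol from the 54532 genes of the deposited counts. All 7 were found, and all 7 were among the 16568 genes with enough reads to be tested. Lungs came from 3 GR+/+ mice and 3 GRdim/dim mice of the strain 129/SvEv x C57BL/6, aged 10 to 16 weeks. GRdim/dim mice are homozygous for a germline point mutation of the glucocorticoid receptor (GR) with which receptor molecules dimerize poorly, and their GR+/+ littermates served as controls. All 6 mice were anesthetized, ventilated, bled to a mean arterial pressure of 35 mmHg for 1 h (hemorrhagic shock, HS), re-transfused and resuscitated for 4 h with colloids and norepinephrine. No unshocked lung was analysed here, so the values compare genotypes after HS and not shocked with unshocked tissue.

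Metallothioneins are small cytosolic proteins whose many cysteines bind zinc and copper, and their genes are among the best known targets of glucocorticoids, zinc and inflammatory cytokines. Free zinc is sensed by MTF-1, the product of *Mtf1*, which binds short metal response elements (MREs) in front of the metallothionein genes and of *Slc30a1*. SLC30 proteins (ZnT) carry zinc out of the cytosol, and SLC39 proteins (ZIP) carry it in. ZIP14, from *Slc39a14*, is known as the importer that interleukin-6 induces in the liver.

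*Mt2* (ENSMUSG00000031762) and *Mt1* (ENSMUSG00000031765) lie beside each other on the plus strand of chromosome 8 in the build GRCm38, at chr8:94172664-94173568 and chr8:94179082-94180327, with 5513 bases between them. Their coding sequences are shown because the 2 genes are close copies that counting could confuse. Both are given 5′ to 3′ from start to stop codon as annotated in GENCODE M21, with capitals at the bases that differ.
Mt1: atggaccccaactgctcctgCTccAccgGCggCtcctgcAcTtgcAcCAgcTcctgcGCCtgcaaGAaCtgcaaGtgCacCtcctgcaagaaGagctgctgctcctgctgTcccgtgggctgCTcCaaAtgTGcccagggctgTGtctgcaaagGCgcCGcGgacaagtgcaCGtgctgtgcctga
Mt2: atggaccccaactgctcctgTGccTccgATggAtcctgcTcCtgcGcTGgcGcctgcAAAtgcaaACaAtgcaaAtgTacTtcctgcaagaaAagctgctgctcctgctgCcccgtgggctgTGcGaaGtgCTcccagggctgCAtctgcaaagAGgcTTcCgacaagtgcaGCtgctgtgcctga
Of 186 bases, 38 differed, which left 79.6% identity and no identical run longer than 20 bases. Each sequence held 20 cysteine codons (TGC or TGT), and all 20 stood at the same places. No window of 31 bases of the *Mt1* transcript Mt1-201 occurred in *Mt2* or in any other annotated transcript. The reads of *Mt2* had another partner, since 432 of its 588 exon bases (73.5%) were also covered by exons of *Gm45774*, an antisense RNA on the opposite strand. Whether reads were counted by strand is not given in the sources used here, and without strand the reads of *Mt2* and *Gm45774* cannot be told apart. In the deposited counts, *Gm45774* had 0, 2 and 1 reads in GR+/+ and 3, 2 and 13 reads in GRdim/dim replicates 1, 2 and 3. How much the overlap affected the counts of *Mt2* was not tested.

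**Figure D1:**
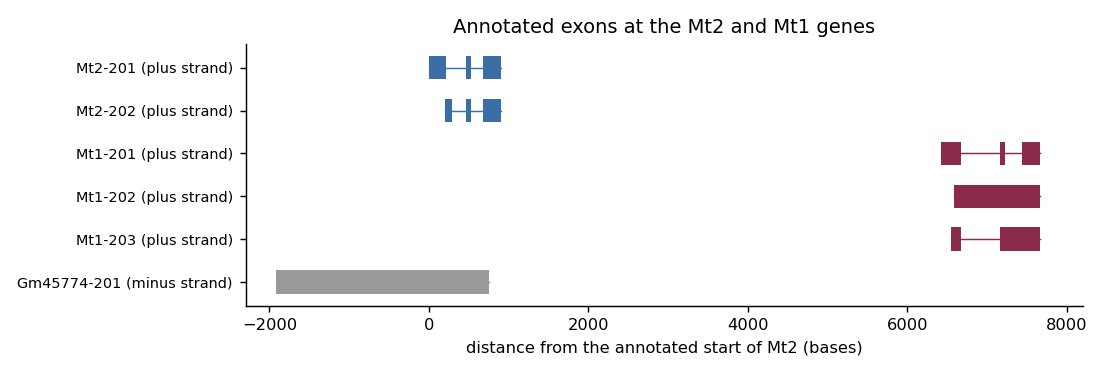
Annotated exons (boxes) and introns (lines) at the *Mt2* and *Mt1* genes, one transcript per row, against the distance in bases from the annotated start of *Mt2*. The antisense transcript of *Gm45774* covers the 5′ part of *Mt2*, while no other gene overlaps *Mt1*, which begins 5513 bases after *Mt2* ends.

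MREs were searched as the letters TGCACNC or TGCGCNC on both strands in the RefSeq promoters of GRCm38.p6, which span 250 bases before and 50 bases after each start. An entry was given for 6 of the 7 genes, all but *Slc39a14*. The 250 bases before the start are printed for the 3 genes named above as MTF-1 targets, *Mt1* (chr8:94178839-94179088, plus strand), *Mt2* (chr8:94172368-94172617, plus strand) and *Slc30a1* (chr1:191906531-191906780, plus strand), with capitals at each MRE match on either strand.
Mt1: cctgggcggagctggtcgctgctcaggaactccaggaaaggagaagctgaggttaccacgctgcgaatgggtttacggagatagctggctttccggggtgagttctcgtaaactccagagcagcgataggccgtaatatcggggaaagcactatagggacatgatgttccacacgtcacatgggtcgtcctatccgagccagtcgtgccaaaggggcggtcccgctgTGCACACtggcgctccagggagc
Mt2: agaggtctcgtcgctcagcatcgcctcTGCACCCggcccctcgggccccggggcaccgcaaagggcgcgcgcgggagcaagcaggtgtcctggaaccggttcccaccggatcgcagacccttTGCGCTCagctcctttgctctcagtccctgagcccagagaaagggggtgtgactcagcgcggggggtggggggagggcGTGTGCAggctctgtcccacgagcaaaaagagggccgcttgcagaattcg
Slc30a1: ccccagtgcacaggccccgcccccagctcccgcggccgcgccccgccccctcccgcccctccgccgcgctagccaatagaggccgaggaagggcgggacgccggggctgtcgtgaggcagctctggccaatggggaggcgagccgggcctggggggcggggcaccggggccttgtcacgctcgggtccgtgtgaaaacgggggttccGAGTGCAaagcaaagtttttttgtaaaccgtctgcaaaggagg
With the 50 bases after the start included, *Mt2* had 4 matches, *Mt1* 3 and *Slc30a1* 2. Of 32851 mouse promoters of that length, 25.7% held at least 1 match, 7.11% at least 2, 1.97% at least 3 and 0.517% at least 4. *Slc39a8* had 1 match in 1 of its 2 promoter entries, and *Mtf1* and *Slc39a10* had 0. A half-site of the glucocorticoid response element, searched as AGAACA on both strands, was in the *Mtf1* promoter alone among these genes and in 19% of all promoters. The antioxidant response element, searched as TGACNNNGC on both strands, was found once each in *Mt2*, *Slc30a1* and 1 entry of *Slc39a8*, and in 12.4% of all promoters. These windows do not reach distal elements, and a match is a string of letters, not a measured binding site. *Mt1* and *Mt2* also have annotated transcripts that begin past the end of the windows searched. Counted in bases from the annotated start of *Mt2*, Mt1-203 and Mt1-202 begin at 6547 and 6577, against 6418 for Mt1-201. Mt2-202 begins at 196. The bases just before these starts were not searched, so the matches of both genes belong to 1 start each.

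The libraries held 15687734 to 32082940 counted reads, and the markers of lung epithelium were abundant in all 6, with *Sftpc* and *Scgb1a1* among them. Levels are given as CPM, counts scaled to a common library total, with edgeR's TMM factors, and fold changes are GRdim/dim over GR+/+. GRdim/dim replicate 1 had the highest summed level of 6 neutrophil markers, 1078 CPM against 340.3 and 478 CPM in the other GRdim/dim libraries and 239 to 466 CPM in GR+/+. GR+/+ replicate 3 held the highest summed level of 4 liver markers, 58.5 CPM against 0.970 to 4.50 CPM elsewhere. By the count of *Xist*, the RNA of the inactive X chromosome, GR+/+ replicates 2 and 3 and GRdim/dim replicate 2 were female and the other 3 male, so sex and genotype partly ran together. In whole lung, fewer cells of a type and less RNA per cell cannot be told apart.

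None of the 7 genes was called, which required a log2 fold change above 0.5 or below -0.5 together with adjusted *p* under 0.05. The quasi-likelihood test of edgeR, with Benjamini-Hochberg adjustment, called 28 of all 16568 genes (0.169%, with 0.0724% higher and 0.0966% lower in GRdim/dim) and 0 of these 7. DESeq2 called 274 of 16150 genes (1.70%, with 0.817% higher and 0.879% lower) and 0 of these 7. At an unadjusted *p*-value under 0.05, edgeR gave 1 of the 7, *Slc39a14*, which was higher in GRdim/dim, against 9.60% of all genes tested (4.91% higher and 4.68% lower). *Slc39a14* was also the 1 gene whose libraries did not overlap between genotypes, against 14.8% of all genes tested (7.77% higher and 7.05% lower). The log2 fold changes of the 7 genes ran from -0.33 to 0.91 with a median of -0.07, and 3 were above 0 and 4 below, where the median of all genes tested was 0.01.

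**Figure D2:**
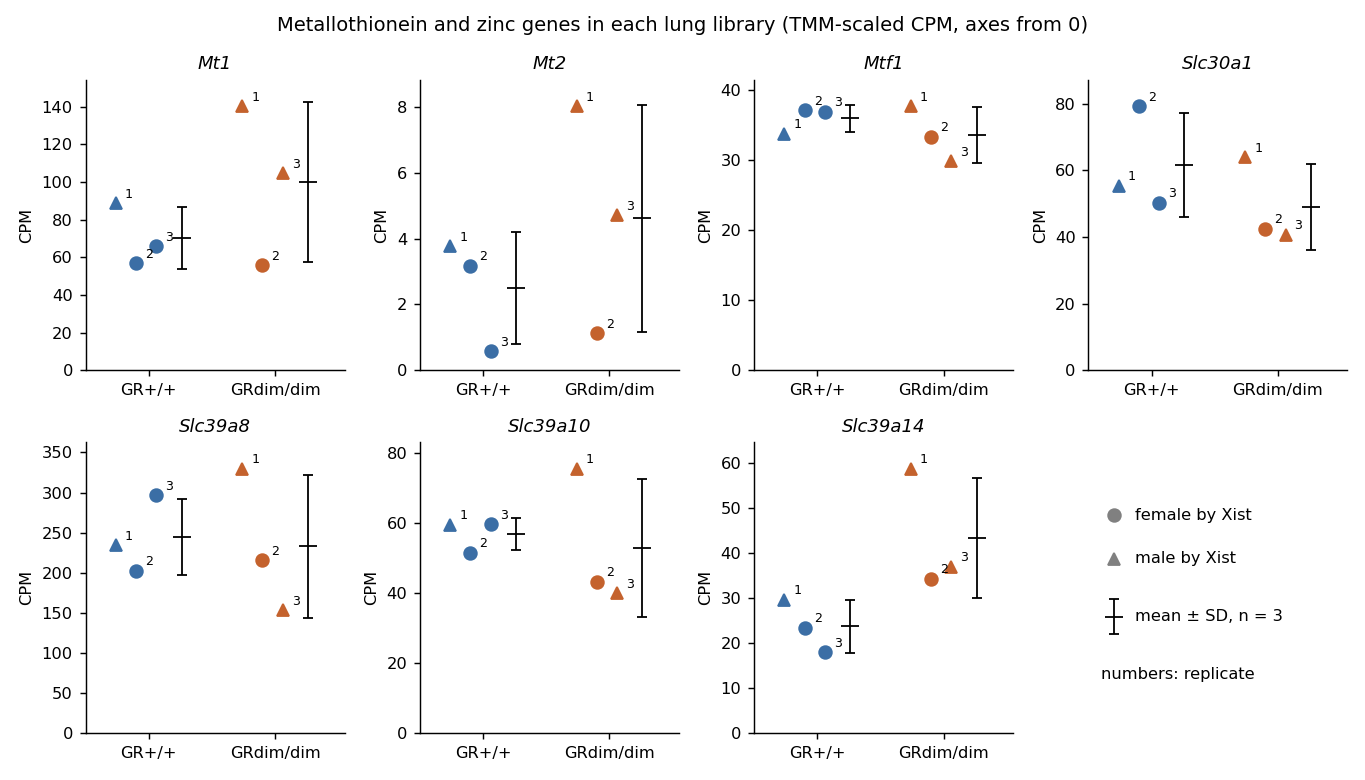
TMM-scaled CPM (y axis, from 0) of the 7 genes in each library, by genotype, with the replicate number beside each point, circles for female and triangles for male libraries by *Xist*, and bars for mean ± SD (n = 3). GRdim/dim replicate 1 is the highest library in every panel except that of *Slc30a1*, and only in *Slc39a14* do the genotypes not overlap.

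*Mt1* had the higher counts of the 2 metallothioneins, where those of *Mt2* may depend on how reads in the overlap with *Gm45774* were counted. It had 88.7, 56.8 and 65.8 CPM in GR+/+ replicates 1, 2 and 3 and 140.3, 55.7 and 105 CPM in GRdim/dim replicates 1, 2 and 3. The groups overlapped, since the lowest of all 6 libraries was GRdim/dim replicate 2 while the other two GRdim/dim libraries were the highest. The means were 70.4 ± 16.5 CPM in GR+/+ and 100.2 ± 42.5 CPM in GRdim/dim (SD, n = 3 each). The log2 fold change was 0.51 (SE 0.30, 95% interval -0.17 to 1.18, adjusted *p* = 0.661 by edgeR's quasi-likelihood test). It was 0.19 without GRdim/dim replicate 1 and 0.80 without GRdim/dim replicate 2, and neither passed the threshold.

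*Mt2* was far lower in these counts. GR+/+ replicates 1, 2 and 3 had 63, 53 and 18 reads, or 3.76, 3.18 and 0.572 CPM. GRdim/dim replicates 1, 2 and 3 had 149, 27 and 73 reads, or 8.03, 1.12 and 4.71 CPM. GRdim/dim replicate 1 was the highest and GR+/+ replicate 3 the lowest library, and the groups overlapped. The log2 fold change of 0.91 had an SE of 0.75 and a 95% interval of -0.78 to 2.59 (adjusted *p* = 0.777 by edgeR's quasi-likelihood test), the widest of the 7 genes. It was 0.24 without GRdim/dim replicate 1 and -0.28 without both that library and GR+/+ replicate 3. That pair was chosen after seeing the data, and leaving out the highest and the lowest library lowers the fold change in any case.

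The read count of *Mt2* was 4.24%, 5.60% and 0.869% of that of *Mt1* in GR+/+ replicates 1, 2 and 3. The share was 5.72%, 2.01% and 4.51% in GRdim/dim replicates 1, 2 and 3. GR+/+ replicate 3, the deepest library, had the lowest share. The log2 ratio of the 2 counts averaged -5.19 ± 1.45 in GR+/+ and -4.74 ± 0.79 in GRdim/dim (SD, n = 3 each), a difference of 0.44 with *p* = 0.6 in a two-sided exact permutation test over 20 assignments, whose smallest possible *p* was 0.1. Without GR+/+ replicate 3 the difference was -0.39.

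Both metallothioneins separated the libraries by sex while the genotypes overlapped, a pattern seen only after the values were known and therefore given without a test. *Mt1* was at 88.7 to 140.3 CPM in the 3 male libraries and at 55.7 to 65.8 CPM in the 3 female libraries. *Mt2* was at 3.76 to 8.03 CPM in the males and at 0.572 to 3.18 CPM in the females. No other of the 7 genes separated the sexes. Of 16048 autosomal genes tested, 739 (4.60%) had every male above every female library, and 686 (4.27%) had every female above every male library. With a covariate for sex-linked expression in the edgeR fit, the log2 fold change between genotypes was 0.12 for *Mt1* and -0.02 for *Mt2*. GRdim/dim replicate 1, the library with the most neutrophil marker RNA, was among the males, and the part of either in the metallothionein levels was not tested.

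*Mtf1* (ENSMUSG00000028890, chr4:124802104-124849800, plus strand), which encodes the zinc sensor, was the steadiest of the 7. It had 33.8, 37.2 and 37.0 CPM in GR+/+ replicates 1, 2 and 3 and 37.7, 33.4 and 29.8 CPM in GRdim/dim replicates 1, 2 and 3. The groups overlapped, with both the highest and the lowest library in GRdim/dim. The log2 fold change was -0.10 (SE 0.17, 95% interval -0.48 to 0.29, adjusted *p* = 0.926 by edgeR's quasi-likelihood test). Exons of *1110065P20Rik* on the opposite strand covered 8.09% of its exon bases.

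*Slc30a1* (ENSMUSG00000037434, chr1:191906767-191913247, plus strand) encodes ZnT1, the exporter in the plasma membrane. It had 55.3, 79.3 and 50.3 CPM in GR+/+ replicates 1, 2 and 3 and 64.0, 42.5 and 40.6 CPM in GRdim/dim replicates 1, 2 and 3. It was the 1 gene of the 7 whose highest library was not GRdim/dim replicate 1, and the remaining GRdim/dim libraries lay below every GR+/+ library. The means were 61.6 ± 15.5 CPM in GR+/+ and 49.0 ± 12.99 CPM in GRdim/dim (SD, n = 3 each), a log2 fold change of -0.33 (SE 0.24, 95% interval -0.85 to 0.20, adjusted *p* = 0.732 by edgeR's quasi-likelihood test). It was -0.56 without GRdim/dim replicate 1, with an adjusted *p* of 0.489 in the same edgeR test, and -0.10 without GR+/+ replicate 2. The antisense gene *1700034H15Rik* covered 8.92% of its exon bases.

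The importers *Slc39a8* and *Slc39a10* followed each other from library to library. *Slc39a8* (ENSMUSG00000053897, chr3:135825279-135888572, plus strand), which encodes ZIP8, a carrier of zinc, manganese and iron, had 234, 202 and 296 CPM in GR+/+ and 329.6, 215 and 153 CPM in GRdim/dim replicates 1, 2 and 3. The highest and the lowest library were both GRdim/dim, and the means were 244 ± 47.9 and 233 ± 89.5 CPM (SD, n = 3 each). *Slc39a10* (ENSMUSG00000025986, chr1:46807544-46892852, minus strand), which encodes ZIP10 and is known to be repressed by MTF-1, had 59.4, 51.4 and 59.6 CPM in GR+/+ and 75.4, 43.1 and 39.9 CPM in GRdim/dim replicates 1, 2 and 3. For *Slc39a10*, GRdim/dim replicate 1 lay above and the other two GRdim/dim libraries below all GR+/+ libraries. The log2 fold changes were -0.07 (SE 0.27, 95% interval -0.67 to 0.53, adjusted *p* = 0.968) and -0.11 (SE 0.24, 95% interval -0.64 to 0.43, adjusted *p* = 0.944) by edgeR's quasi-likelihood test, and the sign of each turned with single libraries left out.

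*Slc39a14* (ENSMUSG00000022094, chr14:70303469-70351425, minus strand), which encodes ZIP14, had the smallest *p*-value of the 7. It had 29.6, 23.4 and 17.9 CPM in GR+/+ replicates 1, 2 and 3 and 58.6, 34.2 and 36.9 CPM in GRdim/dim replicates 1, 2 and 3. All 3 GRdim/dim libraries lay above all GR+/+ libraries, GRdim/dim replicate 1 by the widest margin. The means were 23.6 ± 5.82 CPM in GR+/+ and 43.2 ± 13.4 CPM in GRdim/dim (SD, n = 3 each), a log2 fold change of 0.87 (SE 0.26, 95% interval 0.30 to 1.45). The unadjusted *p* was 0.00699, and over all genes the adjusted *p* was 0.312 with edgeR's quasi-likelihood test and 0.0812 with DESeq2, so the difference did not pass the threshold in either. Without the filter on low counts edgeR gave an adjusted *p* of 0.0121, in a fit that called 522 of 31368 genes, against 28 of 16568 with the filter. Without GRdim/dim replicate 1, the library with the most neutrophil marker RNA, the log2 fold change was 0.60 (SE 0.24). Without that library and GR+/+ replicate 3 it was 0.42 (SE 0.22, unadjusted *p* = 0.0915 in the edgeR fit across all genes). This pair was chosen after seeing the data. It holds the highest and the lowest library of *Slc39a14*, so leaving it out narrows the difference in any case. With the covariate for sex-linked expression the log2 fold change was 0.69 (SE 0.24, adjusted *p* = 0.481 by edgeR). Summed marker levels of some other cell types also stood apart between the genotypes, with some overlap for B cells and neutrophils. By edgeR, 4.91% of all genes tested were higher and 4.68% lower at an unadjusted *p*-value under 0.05. The 5 T cell markers summed to 10.04 to 24.3 CPM in GR+/+ and 28.5 to 35.5 CPM in GRdim/dim, and 3 of 5 were higher at an unadjusted *p*-value under 0.05. The 5 B cell markers summed to 22.9 to 54.7 and 54.1 to 84.1 CPM, again with 3 of 5 higher. The 6 alveolar macrophage markers summed to 338 to 384 and 182 to 269.9 CPM. Most of these sums was *Chil3*, at means of 253 CPM in GR+/+ and 138 CPM in GRdim/dim. It was the 1 of 6 lower at that level, and 2 of the 6 had fold changes above 0. The 3 ciliated cell markers summed to 159 to 323 and 90.3 to 155 CPM, with 1 of 3 lower. Taken singly, each of the 3 overlapped between the genotypes, where 14.8% of all genes tested did not overlap. *Foxj1* made up most of these sums, at means of 140.8 CPM in GR+/+ and 86.6 CPM in GRdim/dim. Of the 6 neutrophil markers, 2 were higher. The part of any of these cell types in the *Slc39a14* difference was not tested.

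**Figure D3:**
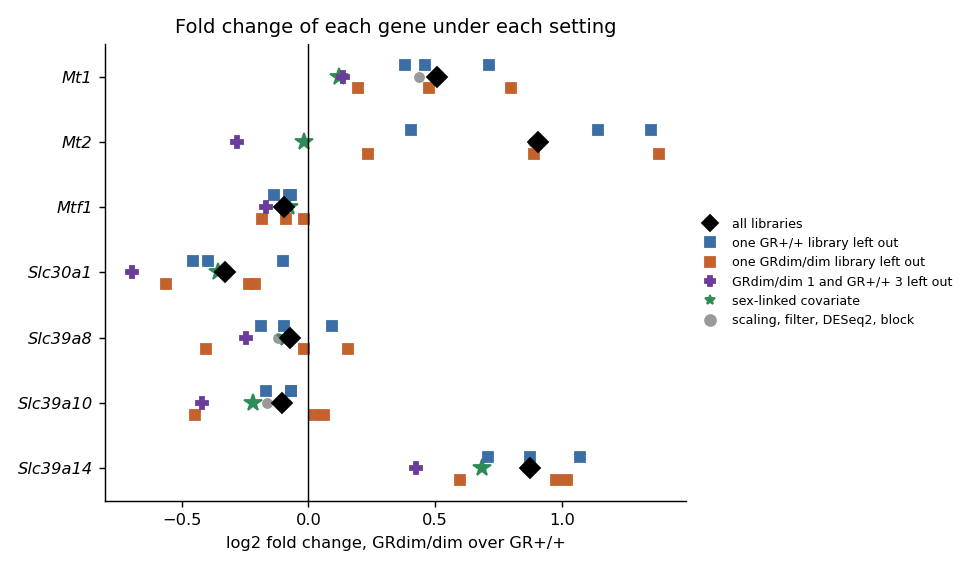
Log2 fold change GRdim/dim over GR+/+ (x axis) of each of the 7 genes with all libraries (black diamonds) and under each alternative, with left-out libraries as squares. *Slc39a14* stays above 0 under every setting drawn, while *Mt2*, *Slc39a8* and *Slc39a10* have values on both sides of 0.

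GRdim/dim replicate 1 was the highest of the 6 libraries for 6 of the 7 genes, against 18.8% of all 16568 genes tested. Divided by the length of all exon bases of each gene, the mean level in GR+/+ lungs was highest for *Mt1* at 56.5 ± 13.2 CPM per kb, then *Slc39a8* at 31.9 ± 6.25 CPM per kb (SD, n = 3 each). *Slc30a1* at 11.8 ± 2.95 and *Slc39a10* at 9.32 ± 0.76 CPM per kb followed and did not differ beyond their spread. *Mt2* at 4.26 ± 2.89, *Mtf1* at 4.04 ± 0.21 and *Slc39a14* at 2.24 ± 0.55 CPM per kb were the lowest, and the spread of *Mt2* covered both others. The place of *Mt2* rests on a length of all 588 exon bases, of which only 156 are free of *Gm45774*, so it depends on how reads in the overlap were counted. The order of the other genes also depends on the length used. All exons of *Slc39a14* hold 10550 bases, against 2098 in the transcript Slc39a14-201. For *Mt1* the lengths are 1246 bases and 549 in Mt1-201. Levels by transcript length were not compared. In GRdim/dim lungs *Mt2* averaged 7.86 ± 5.88, *Slc39a14* 4.10 ± 1.27 and *Mtf1* 3.78 ± 0.44 CPM per kb, again within the spread of *Mt2*.

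Across the 6 libraries, Pearson's *r* of the log2 levels was 0.90 for *Slc39a8* with *Slc39a10* and 0.76 for *Mt1* with *Mt2*. *Slc39a14* had *r* = 0.75 with each metallothionein, and *Mtf1* had 0.81 with *Slc39a8*, 0.78 with *Slc39a10* and 0.77 with *Slc30a1*. *Mtf1* had *r* = -0.11 with both *Mt1* and *Mt2*. These values describe 6 points that share library, sex and genotype, and they carry no test. Over all genes tested, the pattern most like that of *Slc39a14* was that of *Tnfrsf22* (*r* = 0.997) and *Egr2* (*r* = 0.993). For *Mt1* the 5 closest were *Serpina3h*, *Uba2*, *Tmem39a*, *Itgb6* and *Nudt5* (each *r* = 0.98), and among the closest for *Mt2* were *Prr5*, *Arsi*, *Art5* and *Ripk3* (*r* = 0.98 to 0.99). *Serpina3h* belongs to a family of close copies, and its level was at most 1.46 CPM. The closest pairs for the others were *Adam4* and *Gm43196* for *Mtf1*, *Cox15* and *9530082P21Rik* for *Slc30a1*, *Dhx15* and *Vps35* for *Slc39a8*, and *Csnk1g1* and *Dctn4* for *Slc39a10*.

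The wider family was read beside these genes as the other 22 genes named *Mt*, *Slc30a* or *Slc39a*, of which 16 had enough reads. None was called by edgeR or DESeq2, and the median log2 fold change was -0.06. At an unadjusted *p*-value under 0.05 by edgeR, 0 of the 16 were higher and 2 lower in GRdim/dim. Of all genes tested, 4.91% were higher and 4.68% lower at that level. *Slc39a4*, which encodes the importer ZIP4 known from zinc uptake in the gut, had 133, 123 and 145 CPM in GR+/+ and 62.4, 84.9 and 97.7 CPM in GRdim/dim replicates 1, 2 and 3. All its GRdim/dim libraries lay below all GR+/+ libraries, with a log2 fold change of -0.71 (SE 0.19, adjusted *p* = 0.253 by edgeR's quasi-likelihood test). *Slc30a7* was the 1 gene of the 16 that lay higher without overlap, at a log2 fold change of 0.22. Of all genes tested, 7.77% were higher and 7.05% lower without overlap. *Slc39a7*, which encodes ZIP7 of the endoplasmic reticulum, had 5.86, 4.08 and 10.6 CPM in GR+/+ and 3.56, 3.24 and 4.13 CPM in GRdim/dim replicates 1, 2 and 3. The groups overlapped, and GR+/+ replicate 3, the library with the most liver marker RNA, was the highest. The means were 6.85 ± 3.38 CPM in GR+/+ and 3.64 ± 0.45 CPM in GRdim/dim (SD, n = 3 each, log2 fold change -0.92, adjusted *p* = 0.466 by edgeR). The abundant *Slc39a1* and *Slc30a9* had log2 fold changes of 0.10 and -0.03. *Mt3* and *Mt4*, metallothioneins of brain and squamous epithelium, were not tested, with a mean of 0.288 CPM or less.

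**Figure D4:**
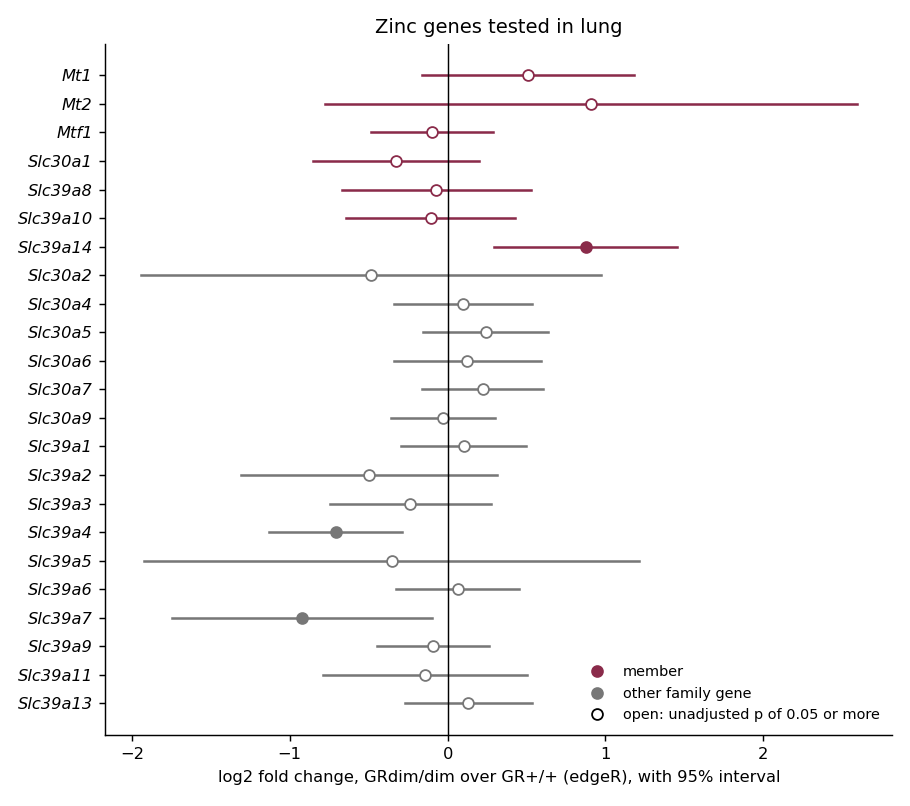
Log2 fold change GRdim/dim over GR+/+ (x axis, edgeR) with its 95% interval for the 7 genes (red) and the 16 other family genes tested (grey), filled where the unadjusted *p* was under 0.05. *Slc39a14* at 0.87, *Slc39a4* at -0.71 and *Slc39a7* at -0.92 are the filled points, and none of them passed the adjusted threshold.

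Other genes tied to these pathways were read from lists, where 9.60% of all genes tested had an unadjusted *p*-value under 0.05 by edgeR. Of 4 further MTF-1 targets, 1 had an unadjusted *p*-value under 0.05. This was *Ndrg1*, a gene induced by stress and hypoxia, with 48.1 ± 10.7 CPM in GR+/+ and 80.5 ± 13.6 CPM in GRdim/dim (SD, n = 3 each, log2 fold change 0.74, adjusted *p* = 0.280 by edgeR). The others were *Selenow* at 0.49, *Csrp1* at 0.08 and *Gclc*, for the catalytic subunit of an enzyme of glutathione synthesis, at 0.01 on the log2 scale. Of 10 glucocorticoid-induced genes, 4 were lower and 0 higher in GRdim/dim at that level, with *Fkbp5*, *Klf9* and *Tsc22d3* at log2 fold changes of -1.25, -1.13 and -0.99. The authors had already reported *Fkbp5*, *Klf9* and *Tsc22d3* as reduced in the same libraries, so their values are no independent check. edgeR called 0 of the 10, against 0.169% of all genes tested, and DESeq2 called 4, against 1.70%. The fold changes of the 10 lay on both sides of 0, with 4 above and 6 below and a median of -0.22. Of 12 genes of the interleukin-6 and acute phase response, 2 were higher and 1 lower at an unadjusted *p*-value under 0.05, and edgeR called 0. *Lcn2*, which binds bacterial siderophores, had a log2 fold change of 0.82 and *Cebpd*, a transcription factor, 0.92, while *Il6ra*, a subunit of the interleukin-6 receptor, had -0.54.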

How the data were processed

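Poly(A)-captured RNA of 6 lungs, 3 per genotype, was sequenced. For each gene the authors deposited whole-number read counts, neither normalized nor pooled. The submitters' processing notes name mm10 and DESeq2. The aligner, counter and use of strand are not given in the sources used here. Of the 54532 genes, 54409 were found in GENCODE M21 and 53462 had the same coordinates and strand there. Genotypes were taken from the sample labels. Libraries sharing a genotype differed beyond sampling noise and were used separately, and *p*-values set the difference between genotypes against the spread between these mice.

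Counts were analysed in R 4.3.3 with edgeR 4.0.16 (TMM, filterByExpr, robust glmQLFit, glmQLFTest) and Benjamini-Hochberg adjustment over 16568 genes. DESeq2 1.42.0 was run on all genes. Log2 levels carry a prior count of 2. The depth of 15687734 to 32082940 counts limits *Mt2* most, with 18 to 149 reads per library, and intervals cover the spread between mice. All 7 genes are reported. From the lists, genes were named by unadjusted *p*-value or mean level, and by Pearson's *r* for likeness. A gene that this rule names is not reported here. Gene members, lists and rules were chosen with earlier results of these data known. Alternatives were RLE scaling, no filter, at least 10 counts in every library, DESeq2, no threshold on the fold change, a sex-linked expression covariate, a replicate block and each library left out in turn. Leaving out GRdim/dim replicate 1 and GR+/+ replicate 3 together was chosen after seeing the data. Sequences were taken from GENCODE M21 (coding) and RefSeq for GRCm38.p6 (promoters).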

Additional observations from a re-analysis of the deposited data

Results flagged for a closer look

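*Mt1* moved in opposite directions between genotypes in the 2 sexes, which is why it is listed here. In female libraries the 1 GRdim/dim library lay below both GR+/+ libraries, with a mean difference GRdim/dim minus GR+/+ of -5.53 CPM. It had 55.7 CPM, against 56.8 and 65.8 CPM in GR+/+ replicates 2 and 3, so the nearer one was close. In male libraries the 2 GRdim/dim libraries lay above the 1 GR+/+ library, with a mean difference of 33.7 CPM. The difference between the sexes was not tested, and how many of all genes show such a pattern was not counted. Each rests on 1 library in one of its groups, and the sex of each mouse was read from *Xist*.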

How the results depend on the processing

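Of 16568 genes tested, 28 were called, against 522 of 31368 without a filter on low counts and 274 of 16150 with DESeq2. Without GRdim/dim replicate 1 and GR+/+ replicate 3, 10 of 16602 were called. With single libraries left out, it was 4 of 17048 (without GR+/+ replicate 2) to 22 of 16904 (without GRdim/dim replicate 1). None of the 7 genes was called under any of these except *Slc39a14* without a filter, where 1 was called and the log2 fold change was 0.87. At an unadjusted *p*-value under 0.05 there were 3 of the 7 without a filter (*Mt1*, *Mt2* and *Slc39a14*) and 1 to 3 with single libraries left out, the 3 without GRdim/dim replicate 1 being *Slc30a1*, *Slc39a10* and *Slc39a14*. Of the other family genes there was 1 with the covariate for sex-linked expression, 1 without both libraries named above, and 1 to 3 with single libraries left out.

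The sign of the log2 fold change turned for *Mt2*, to -0.016 with the sex covariate and -0.28 without both libraries, with 0.24 to 1.38 when single libraries were left out. It turned for *Slc39a8*, to 0.09 without GR+/+ replicate 3 and 0.16 without GRdim/dim replicate 3, the lowest value being -0.40 without GRdim/dim replicate 1. It turned for *Slc39a10*, to 0.023 without GRdim/dim replicate 2 and 0.060 without GRdim/dim replicate 3, the lowest value being -0.45 without GRdim/dim replicate 1. The difference in the log2 ratio of *Mt2* to *Mt1* ranged from -0.39 without GR+/+ replicate 3 to 0.96 without GR+/+ replicate 2. The cause was not tested for any of these. *Mt1*, *Mtf1*, *Slc30a1* and *Slc39a14* kept their sign under every alternative run.

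Replicate numbers were not taken to pair the samples. Same-numbered libraries had correlations of 0.22, 0.04 and -0.05, and differently numbered ones -0.27 to 0.19. With 3 libraries per genotype, these values cannot settle whether mice were paired. With the replicate number as a block, 34 genes were called and 0 of the 7, 1 of the 7 and 2 of the other family genes had an unadjusted *p*-value under 0.05, *Slc39a14* had a log2 fold change of 0.86 (adjusted *p* = 0.168 by edgeR), and the ratio difference was 0.44 (*p* = 0.75, exact permutation within pairs).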
